A study of Rattus norvegicus with 15 samples.

Results

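Blood RNA 72 h (3 days) after modelling of deep venous thrombosis was compared with blood RNA 1 h after modelling, 3 libraries at each time, over every feature of the deposited expression table with a value of at least 10 in 3 or more of these 6 libraries. That rule kept 9945 of 17599 features, of which 7927 were annotated Ensembl rat genes (IDs that begin with ENSRNOG) and 2018 were gene models assembled from reads (IDs that begin with MSTRG). The comparison asks which blood transcripts stood at another level once the clot had been in place for days than in its first hour. The animals were male Sprague-Dawley rats, an outbred stock, 6 to 8 weeks old, and no genotype, drug or other treatment is named for any group. Besides the 1 h and 72 h groups the series holds sham rats, labelled 0 h, and rats sampled at 6 h and 12 h, again 3 libraries each. The sample titles of the sham, 1 h and 72 h libraries carry the code A&B and those at 6 h and 12 h the code C, so the 2 times compared share a code. The sources used here do not say how the clot was induced. The labels number the libraries without saying that each came from its own rat, so p-values here reflect only how far these samples spread, and that spread may be technical.

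A deep venous thrombosis is a clot of fibrin, red cells, platelets and leukocytes in a deep vein. In the first hours neutrophils and monocytes are recruited to it and platelets are consumed, and over the following days monocytes and macrophages begin to clear and reorganise the clot. RNA of whole blood comes from reticulocytes, which are young red cells still rich in globin transcripts, and from leukocytes and platelets. A level in it therefore moves with the number of cells of each type as well as with the RNA in each cell, and in these bulk samples fewer cells of a type and less RNA per cell cannot be told apart. The table gives feature IDs without gene names, and 0 IDs matched the reference table of rat genes, so no gene, pathway or cell type marker is named here. The labelled tissue could not be checked against markers for the same reason.

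The 6 libraries held 29.2 to 35.8 M reads (mega-reads, recovered from the deposited values). The 3 libraries at 1 h, with 31.2 to 35.8 M, all lay above the 3 at 72 h, with 29.2 to 31.0 M (exact permutation test, two-sided, p = 0.1, the smallest that 3 against 3 allows, and 0.35 after Benjamini-Hochberg adjustment over 7 tests). Only 4.67 to 5.96 M reads per library fell outside 5 assembled features, which took 80.8 to 85.1% of the reads. The factors by which the authors had divided the reads were 0.755, 1.03 and 1.06 at 1 h and 0.760, 1.57 and 0.726 at 72 h. The factor of 72 h replicate 2 stood apart from the others.

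At 72 h, 2 of the 9945 features were higher than at 1 h and 0 were lower at an adjusted p under 0.05 (limma on the log2 scale, all 15 libraries in the fit). These 2 were also all that was called among the 11117 features fitted, 0.018% of them, with 0.0% called lower. The log2 differences of all features were centred near 0, with a median of -0.03 and a middle range of -0.41 to 0.36. A difference of more than 1 log2 unit was seen upward in 647 features and downward in 683. Without adjustment, 922 features had a limma p under 0.05, 455 higher and 467 lower. This is 9.27% of the 9945, near the 9.01% of all features fitted. Most of the features fitted are among the 9945, so these shares had to lie close. edgeR on the reads recovered from the values called 1 feature (0.009% of those fitted, 772 at unadjusted p under 0.05).

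The 3 libraries at 72 h lay above the 3 at 1 h in 817 features (7.95% of all features fitted did so) and below them in 922 (8.86%). Together this is 17.5% of the 9945, where 16.8% of all features fitted separated in either direction. These shares also had to lie close, being of mostly the same features. The median standard error of a difference was 0.48 log2 units, and over 4 equal parts of the features in order of increasing abundance it was 0.72, 0.48, 0.38 and 0.42. Libraries spread slightly more at 72 h, with a median SD of 0.46 log2 units against 0.41 at 1 h. The groups did not overlap in 18.2% of the assembled and 17.3% of the annotated features. Of the 100 most abundant features, 2 were higher and 4 lower at 72 h without overlap, and this share was not tested against the rest. In the plot of difference against abundance many uncalled features of lower abundance have differences as large as those of the 2 called ones.

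**Figure D1:**
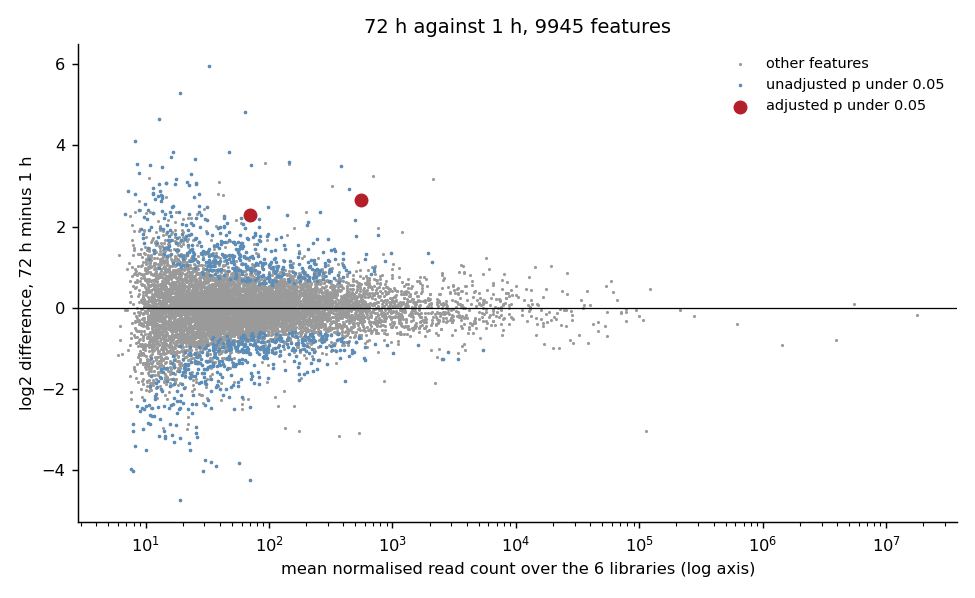
Log2 difference (72 h minus 1 h) of 9945 features against their mean normalised read count over the 6 libraries, on a log axis. Blue points had an unadjusted p under 0.05 and the 2 red points an adjusted p under 0.05; the scatter widens toward low counts, where differences of up to 5.96 did not pass.

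The feature with the smallest p, the assembled model MSTRG.4634, had normalised read counts of 27.8, 19.4 and 22.5 at 1 h and of 112, 117 and 123 at 72 h. Every library at 72 h was about as high as the others and none came near the 1 h libraries. Its mean rose from 23.2 ± 4.25 to 117 ± 5.34 (SD, n = 3 each), with a fitted difference of 2.30 on the log2(value + 1) scale (SE 0.29, limma adjusted p = 0.00516), or 4.92-fold on that scale. The 3 sham libraries, at 63.8, 84.4 and 64.0, lay between the groups without touching either. At 6 h the counts were 117, 112 and 149, and at 12 h they were 90.8, 72.0 and 134. No library of any other group was as low as the 3 at 1 h.

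The other called feature, the annotated gene ENSRNOG00000009342, was the more abundant of the pair. Its normalised read counts were 278, 111 and 106 at 1 h and 813, 982 and 1031 at 72 h. Replicate 1 at 1 h was higher than its partners, and all 3 libraries at 1 h stayed far below those at 72 h. The mean rose from 165 ± 98.0 to 942 ± 114 (SD, n = 3 each), with a fitted difference of 2.65 on the log2(value + 1) scale (SE 0.42, limma adjusted p = 0.0475), or 6.28-fold on that scale. The sham libraries stood at 496, 821 and 656, above every 1 h library, and the highest of them reached into the range at 72 h. Counts at 6 h were 468, 601 and 808, and at 12 h they were 283, 293 and 650. edgeR gave this gene an adjusted p of 0.0955 with all 15 libraries and 0.0457 with the 6 libraries alone.

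Which features passed depended on the analysis and on single libraries. The call of MSTRG.4634 was lost without 1 h replicate 3 (limma adjusted p = 0.0549) or 72 h replicate 3 (0.0605), and ENSRNOG00000009342 was called in 1 of the 6 fits that left out a library, with an adjusted p of up to 0.241. Dropping 1 h replicate 1 raised the number of calls to 13 (10 higher, 3 lower), dropping 1 h replicate 2 gave 3, and dropping 1 h replicate 3 gave 0. Dropping 72 h replicate 1 or 2 left 1 call each, and dropping 72 h replicate 3 left 0. Scaling to equal totals of the reads outside the 5 dominant features gave 0 calls in limma (492 at unadjusted p under 0.05), with a median standard error of 0.65.

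The 12 h libraries, which enter the fit only through the shared estimate of spread, were the most variable, with a median SD of 0.70 log2 units. Both limma fits without the 6 h and 12 h libraries called more features. They also leave out title code C and hold fewer libraries, and the cause of the higher counts was not tested. The fit to the 6 libraries alone called 14 (11 higher, 3 lower, 0.126% of those fitted). The fit to the 9 libraries with title code A&B called 39, or 0.351%, of which 26 were higher (0.234%) and 13 lower (0.117%). Dropping 1 h replicate 1, 2 or 3 from those 9 gave 110, 13 or 0 calls, and dropping 72 h replicate 1, 2 or 3 gave 4, 86 or 6. Counts with a library left out, here and elsewhere, are of the 9945 features alone, and their shares of all features fitted were not taken. The 86 calls made when 72 h replicate 2 was dropped were mostly lower (27 higher, 59 lower). edgeR on the 6 libraries alone called 11 (9 higher, 2 lower, 0.0989%).

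DESeq2 on all 15 libraries called 68 (37 higher, 31 lower), where it called 0.706% of the 10056 features it gave an adjusted p. On the 6 libraries alone it called 111 (66 higher, 45 lower), where it called 1.02% of the 11225 features it gave an adjusted p. Array weights, which give noisy libraries less weight, led limma to call 221 (113 higher, 108 lower, 2.05%). With each library's log2 factor as a covariate limma called 198 (111 higher, 87 lower, 1.79%). With the covariate, dropping 1 h replicate 1, 2 or 3 gave 228, 91 or 40 calls, and dropping 72 h replicate 1, 2 or 3 gave 90, 86 or 17. In DESeq2 the same steps gave 68, 22 or 10 calls and 37, 44 or 12. The balance of directions in DESeq2 turned on 1 library, with 10 higher and 34 lower without 72 h replicate 2, and it was even without 1 h replicate 3 (5 higher, 5 lower). The plot of calls by analysis shows the range of counts over the analyses it holds.

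**Figure D2:**
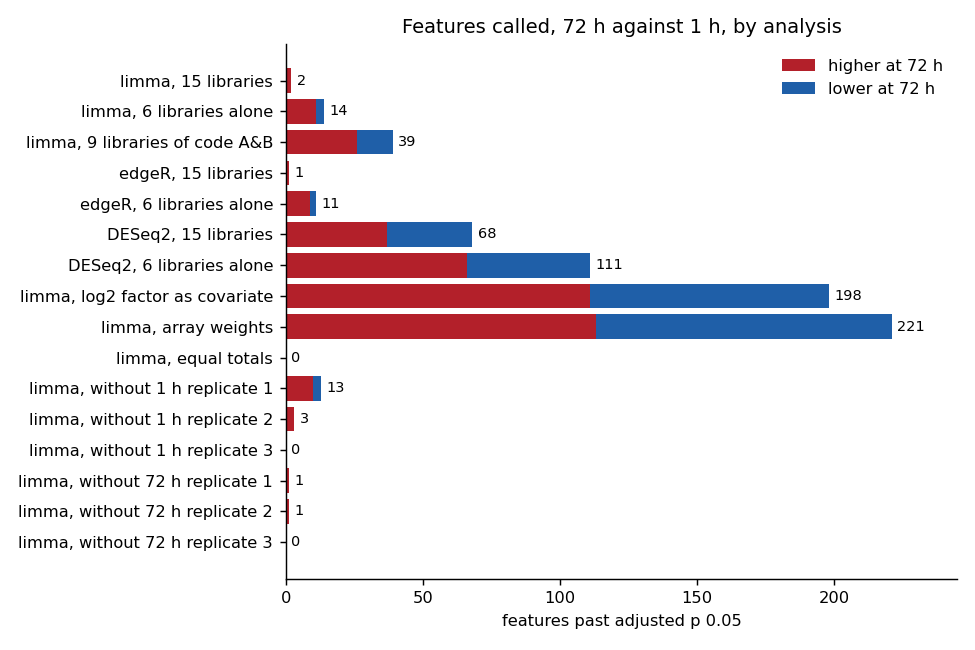
Number of features past adjusted p 0.05 for 72 h against 1 h (horizontal axis, counts from 0) in 16 analyses (rows), split into those higher (red) and lower (blue) at 72 h. Counts run from 0 with equal totals or without replicate 3 of either time to 221 with array weights.

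A set of 5 features, all higher at 72 h, was called in each of 6 analyses: limma on the 6 libraries, limma on the 9 libraries of code A&B, limma with the factor as covariate, limma with array weights, DESeq2 on 15 libraries and edgeR on 6. MSTRG.4634 and ENSRNOG00000009342 were 2 of them, and the other 3 are described here without IDs, as features singled out after their values were seen. These analyses use the same libraries and are not independent of each other. The 6 were picked after the counts of calls had been seen, and DESeq2 on 6 libraries also called all 5. Several others called fewer: limma on 15 libraries called 2, edgeR on 15 libraries called 1 (MSTRG.4634), TMM scaling and quantile normalization called 1 each, and the fits with equal totals and with a 2-fold minimum called 0.

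An annotated feature of this set had normalised read counts of 41.0, 21.3 and 27.2 at 1 h and 151, 145 and 208 at 72 h. The 3 libraries at 72 h were all far above those at 1 h. The log2 difference was 2.48 (SE 0.41) with a limma adjusted p of 0.0505 in the fit of 15 libraries, just over the threshold, and of 0.0170 in the 6 libraries alone.

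An assembled feature had 19.9, 20.4 and 24.4 at 1 h, nearly the same in each library, and 94.8, 163 and 79.9 at 72 h. Its sham libraries had 83.7, 127 and 91.2, a range that overlaps the one at 72 h. The log2 difference was 2.27 (SE 0.44, limma adjusted p = 0.107 in the fit of 15 libraries).

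The remaining annotated feature of the set had 117, 80.5 and 95.8 at 1 h and 579, 570 and 1217 at 72 h. At 72 h replicate 3 stood well above its partners. At 6 h the feature had 411, 1659 and 622, and at 12 h it had 2156, 2840 and 205, so the libraries of both times were widely spread. The log2 difference between 72 h and 1 h was 2.92 (SE 0.75), with a limma adjusted p of 0.229 in the fit of 15 libraries and 0.00579 in the 9 libraries of code A&B, which leave out both the 6 h and the 12 h libraries.

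The sham libraries were higher than all 1 h libraries in 5 of the 5 features, and the 72 h libraries were higher than all sham libraries in 3 of the 5. The 1 h libraries entered the choice of these features, so their low position against sham is a description and not a test.

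**Figure D3:**
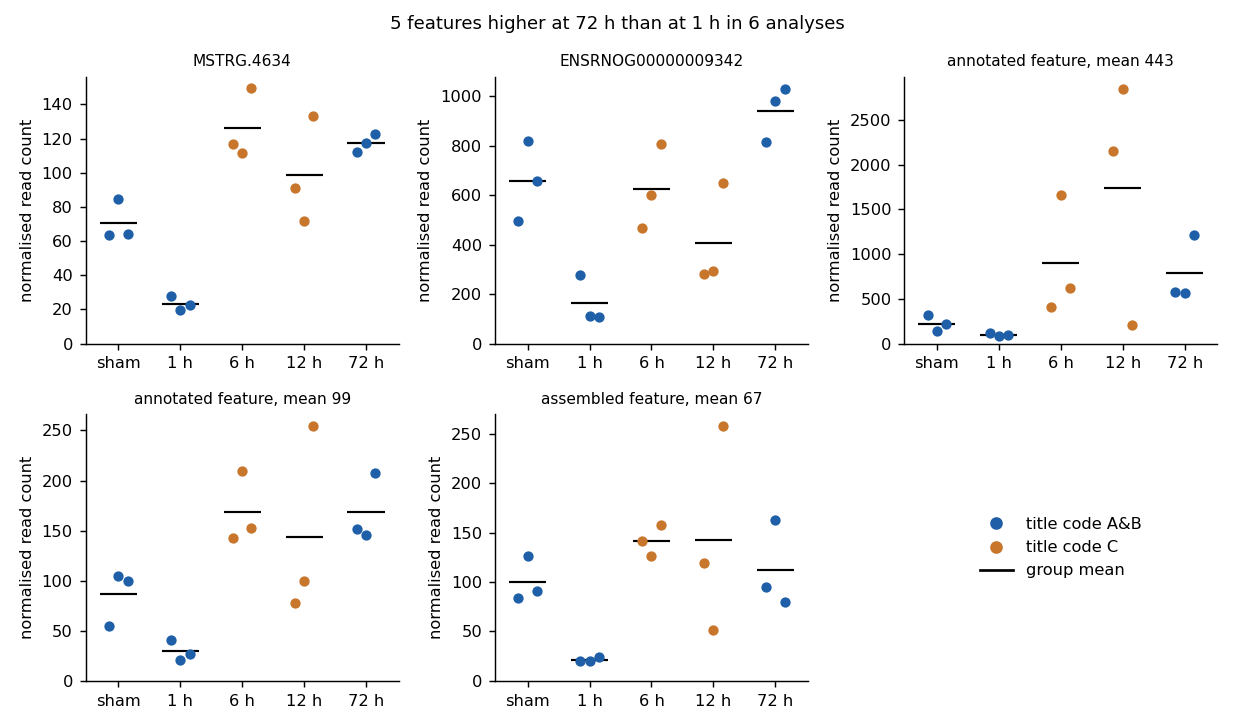
Normalised read counts (vertical axes from 0) of the 5 features called in 6 analyses, by group, with 1 point per library, blue for title code A&B, orange for C, and a line at the group mean. In each panel the 1 h libraries are the lowest of the code A&B groups and do not overlap those at 72 h.

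The same position of sham was looked at over the longer lists. Of the 26 features called higher at 72 h within code A&B, all 26 had a 1 h mean below the sham mean, and 6 had a 72 h mean below it. Among all 817 features whose 72 h libraries lay above the 1 h libraries, 684 had a 1 h mean below sham and 233 a 72 h mean below it. The median distance of the 26 from sham was -1.50 log2 units at 1 h and 0.61 at 72 h. For the 817 it was -0.59 and 0.32. The sham mean was nearer to 72 h than to 1 h in 21 of the 26, or 80.8%. The share was lower among the features called higher in the longer lists, with 72 of 111 (64.9%) under the factor covariate, 80 of 113 (70.8%) under array weights, 26 of 37 (70.3%) in DESeq2 on 15 libraries and 47 of 66 (71.2%) in DESeq2 on 6. It was 59.6% (487) among the 817 features and 49.2% among all 9945. The 13 features called lower at 72 h stood above sham at 1 h by a median of 0.84 and below it at 72 h by a median of -0.68, with sham nearer to 72 h in 7 of them, or 53.8%. Among the features called lower in the longer lists the share was 42.5% under the covariate, 36.1% under array weights, 45.2% in DESeq2 on 15 libraries and 60.0% in DESeq2 on 6. It was 46.2% (426) among all 922 features whose 72 h libraries lay below the 1 h libraries. Because 1 h and 72 h are both set against the same sham libraries and were used to pick the lists, no test is attached to these counts.

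Among features of at least median abundance whose groups did not overlap, those with the largest differences in either direction did not pass the test. ENSRNOG00000029386 had the lowest value, with normalised read counts of 11.9, 132 and 185 at 1 h and 5.26, 1.27 and 6.88 at 72 h. Replicate 1 at 1 h was as low as the sham libraries, which had 20.7 at most, so the high level at 1 h was present in 2 of the 3 libraries. The log2 difference was -3.82 (SE 0.80, limma adjusted p = 0.152). It was -5.03 without 1 h replicate 1, where the adjusted p was 0.00180, and -3.10 without 1 h replicate 3, where it was 0.579. DESeq2 called this gene lower (adjusted p = 6.05e-05).

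ENSRNOG00000045989, the ninth most abundant of the 9945 features, had 223422, 134995 and 131287 at 1 h and 92122, 860 and 93213 at 72 h. The value of 72 h replicate 2 was far below its partners, and sham replicate 3 was also low at 1429, against 74205 and 61082 in the other sham libraries. Those 2 libraries had the highest factors of the 9 with code A&B, 1.57 and 1.55. The log2 difference was -3.02 (SE 1.69, limma adjusted p = 0.645), and it shrank to -0.77 without 72 h replicate 2. With the log2 factor as a covariate it was -2.97 in 15 libraries, -2.90 in 6 and -2.89 in 9. The limma adjusted p with the covariate was 0.364, 0.207 and 0.270, against 0.645, 0.671 and 0.635 without it. The mean log2 factor was nearly equal at the 2 times, -0.09 at 1 h and -0.07 at 72 h. With means so close, the covariate fits cannot decide the part of the factor in single libraries. At 6 h and 12 h replicate 3 was the lowest library for this gene, with 48713 and 27892. Each had the highest factor of its group, 1.40 and 2.67. The part of the factor in these values was not tested.

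The largest upward difference by the same rule was in an assembled feature with 122, 55.3 and 0 at 1 h and 279, 177 and 241 at 72 h (log2 difference 3.59, SE 1.55, limma adjusted p = 0.517). The next was in an annotated feature with 0, 115 and 13.2 at 1 h and 120, 180 and 124 at 72 h (log2 difference 3.56, SE 2.14, limma adjusted p = 0.672). In each a single 1 h library was at 0, and the edgeR log2 differences were 1.99 and 1.72.

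**Figure D4:**
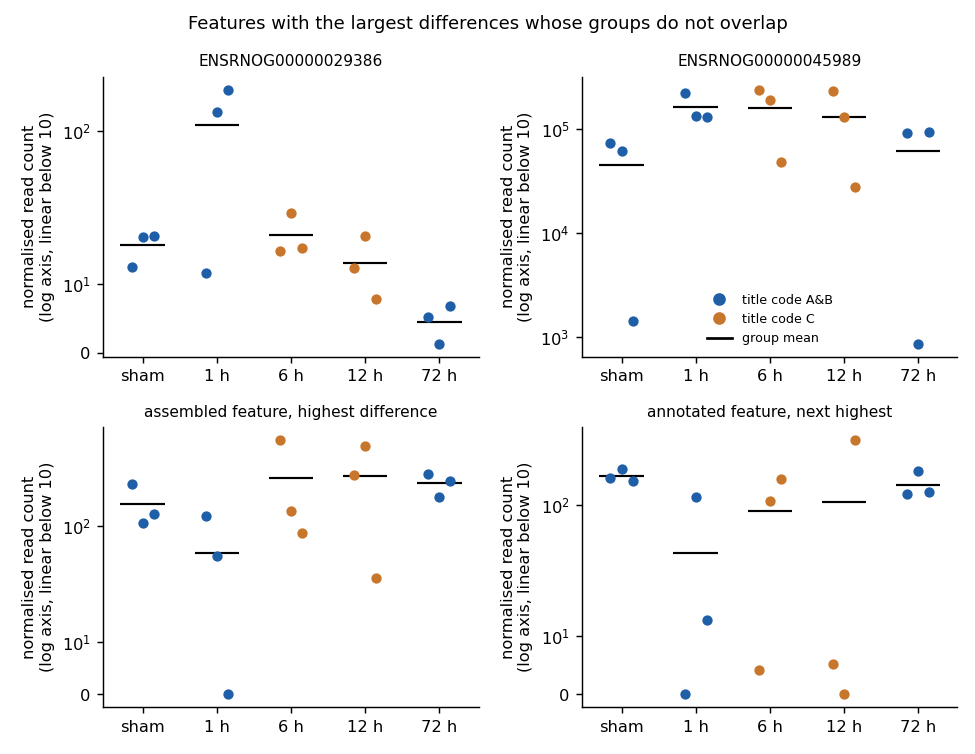
Normalised read counts, on a log axis that is linear below 10, of the features with the lowest and highest log2 differences among those of at least median abundance whose 1 h and 72 h libraries did not overlap, 1 point per library and a line at the group mean. Each panel holds a 1 h or 72 h library far from its partners, such as 72 h replicate 2 at 860 in the upper right panel.

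Beyond the 2 called features, 6 more had a limma adjusted p under 0.1, 4 of them higher and 2 lower at 72 h. The higher ones include features without a read at 1 h, which met the abundance rule only through 72 h and had to differ. The lower feature with the smaller p, an annotated one, had 86.1, 105 and 108 at 1 h and 13.2, 29.3 and 23.4 at 72 h. Its level at 1 h was similar in the 3 libraries and stood above sham, which had 22.9, 29.7 and 28.4, while the 72 h libraries lay in or under the sham range. The log2 difference was -2.19 (SE 0.38, limma adjusted p = 0.0624), and DESeq2 called it (adjusted p = 0.000312). The other lower one, an assembled feature, went from 260, 366 and 382 at 1 h to 94.8, 154 and 97.8 at 72 h, with 165, 209 and 226 in sham between them (log2 difference -1.55, SE 0.29, limma adjusted p = 0.0795).

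A few features were read at one time and not at the other. In 4 features no read was found in any 1 h library while every 72 h library had a value of at least 10, and in 2 features the reverse held. Set against a floor of 3 reads in each empty library, the means of the 4 were 5.04-fold to 20.2-fold higher at 72 h. Those of the 2 were 4.54-fold and 4.73-fold lower. None of the 6 had a limma adjusted p under 0.05 in the fit of 15 libraries. Each of the 6 met the abundance rule only through the group with reads and so had to differ. Their p-values and calls are therefore a description and not support. The most abundant of them, an assembled feature, had 55.3, 42.7 and 97.8 at 72 h. Its limma adjusted p was 0.0795 in the fit of 15 libraries and 0.0170 in the 6 libraries alone. This feature passed in 10 of 29 alternative analyses. It was also without reads in 2 of the 3 sham libraries, with 48.8 in sham replicate 1. Of the 4, 3 had reads in only 1 sham library.

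Passing the abundance rule through a single group was uncommon. A value of at least 10 in all 3 libraries of 72 h and in none of 1 h was seen in 64 features, and the reverse in 57, while 7502 reached 10 in all 6 libraries. Such features had to differ, so these counts say nothing of a response. Just inside the rule, 650 features reached 10 in exactly 3 libraries, with a median mean count of 11.1, and just outside it 688 reached 10 in 2, with a median of 8.07.

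The 5 dominant assembled features were among the 9945 and none was called. The most abundant took 51.8, 47.8 and 52.0% of reads at 1 h and 51.7, 48.7 and 54.1% at 72 h, ranges that overlap. The feature ranked 3 took 13.6, 14.6 and 11.8% at 1 h and 10.4, 11.8 and 5.54% at 72 h. It was the only one of the 5 whose groups did not overlap, by a margin of less than 0.1 percentage points. Mean shares of 13.4% ± 1.42 (1 h) and 9.24% ± 3.28 (72 h) resulted (SD, n = 3, exact permutation p = 0.1, adjusted 0.35 over 7 tests). The feature ranked 4 took 5.04% ± 0.491 and 3.34% ± 1.52 (SD, n = 3, exact permutation p = 0.2, adjusted 0.35). In both, 72 h replicate 3 was the lowest library, with 5.54% and 1.75%.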

How the data were processed

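The deposited values are a signal that the authors made, per the table's name, by normalizing read counts per feature. In each library the values were whole multiples of 1 step (100% within 0.01 of a whole number), so reads were recovered by dividing by it. For sham replicate 1, whose step is close to 1, this is less well tested. Per the submitters' processing notes Bowtie 0.12.2 and Rnor_6.0 were used, in a role not given there. The counting tool, annotation, strand setting and handling of multiply matching reads were not given in the sources used here, so reads of overlapping or near-identical genes cannot be told apart. Per the labels' protocols, RNA was kept in PAXgene tubes and sequenced as pairs of 150 bp. Factors recomputed by the median-of-ratios method matched to within 1.75e-09%, and under that method a shift shared by most features would not appear.

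The fit took the 11117 features that reached 10 in 3 or more of the 15 libraries. They were fitted by group in limma 3.58.1 (trend, robust; R 4.3.3) on log2(value + 1). Tests were two-sided, adjusted over all of them by Benjamini-Hochberg at a threshold of 0.05. The script was tested on simulated data. Log2 differences on this scale understate the change of low features. edgeR 4.0.16 and DESeq2 1.42.0 were run on the recovered reads. Folds against a floor of 3 reads allow for counting error in the empty libraries only and not for the spread of the other group. The features, the 35 gene lists and the rules were chosen with earlier results of these data known. No list could be used (0 tested), because no ID matched a symbol. The rule for naming features without symbols takes the 2 largest differences in each direction among features of at least median abundance whose groups do not overlap. IDs are printed for the 2 that fit it downward and for the 2 called features, which lie outside it, in place of the upward pair. Fits to the 6 libraries with edgeR or DESeq2, without 12 h replicate 3, and the factor covariate within 6 or 9 libraries were added after seeing the data. So were the fits of the code A&B libraries, DESeq2 and the factor covariate with a library left out. The 6 analyses whose shared calls are described were picked after their counts of calls were known.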

Additional observations from a re-analysis of the deposited data

How the results depend on the processing

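The count of 2 called features was 2 with only the 9945 features entered, 3 with a minimum of 50 and 3 without trend. It was 4 with a pseudocount of 0.5, 4 with a pseudocount of 5, 5 without a filter, 1 with TMM scaling, 1 with quantile normalization, 1 in edgeR with 15 libraries and 11 in edgeR with 6. It was 14 in the fit to 6 libraries, 39 in that to the 9 of code A&B, 68 in DESeq2 with 15 libraries and 111 with 6, 221 with array weights and 26 without 12 h replicate 3. With the log2 factor as a covariate it was 198 in 15 libraries, 97 in 6 and 301 in 9. It was 0 with equal totals (492 at unadjusted p under 0.05) and 0 with a 2-fold minimum (96 at unadjusted p under 0.05), the latter a stricter question. Leaving out a library gave 0 to 13 calls in the main analysis, 17 to 228 with the covariate, 0 to 110 within code A&B and 10 to 68 in DESeq2. Over 29 alternatives the log2 difference of MSTRG.4634 stayed between 2.12 and 2.43 and passed in 25, and that of ENSRNOG00000009342 between 2.41 and 3.10 and passed in 17. No direction reversed in the 12 features followed over the alternatives. They were the called features, those found by the naming rule and those with a limma adjusted p under 0.1. Other features described above were not followed in this way. The 12 were picked in these data for their differences, so a kept direction is no support. With the replicate number as a block 1 feature was called with 15 libraries and 17 with 6. Deviations of same-numbered 1 h and 72 h libraries correlated by 0.07, 0.15 and -0.05 across features. Not every library correlated best with its own number. The labels do not say whether the numbers pair the samples. Deviations from means of 3 libraries are tied to each other, so these values cannot decide it. In most analyses where the count moved the cause was not tested. Few reads outside the dominant features limit what can be seen in low features.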

Other observations

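Absence from a single library was unevenly spread. Among the 9945 features, 54 had no read in 1 h replicate 1 and a value of at least 10 in each of the other 5 libraries, and 42 did so in 72 h replicate 3 and 26 in 72 h replicate 1. The counts were 13 and 9 in 1 h replicates 2 and 3 and 6 in 72 h replicate 2. The first 3 libraries had the lower factors (0.755, 0.726 and 0.760), against 1.03, 1.06 and 1.57 in the others. Reads outside the dominant features were 5.35, 4.72 and 4.67 M in the former and 5.10, 5.35 and 5.96 M in the latter. The part of the factor in these counts was not tested.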
